A study of Mus musculus with 7 samples.

Results

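Interferon response genes are the genes that cells switch on when an interferon binds its receptor. The 40 genes described here were taken by symbol from the RNA-seq table of mouse uterus, and all 40 were among its 31274 rows. RNA had been sequenced from whole uteri of unexposed control CD-1 mice, an outbred stock, at 2 months of age. The groups were 4 libraries from diestrus, the progesterone-dominated phase of the estrous cycle, and 3 libraries from estrus, which follows the estradiol peak. Stage was the difference that the labels give between the groups, and they do not tie libraries to individual animals, so a p-value reflects variation among libraries that could be technical. The values are FPKM, fragment counts normalised for transcript length and library size.

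As background, type I interferons act through the receptor chains Ifnar1 and Ifnar2 and the kinases Jak1 and Tyk2. These lead to a complex containing Stat2 and Irf9 that binds the interferon-stimulated response element in target promoters. Interferon gamma acts through Ifngr1 and Ifngr2 and the gamma-activated site, and lambda interferons act through Ifnlr1 and Il10rb. Interferon epsilon, the product of Ifne, is a type I interferon known for constitutive, hormone-regulated expression in the epithelium of the female reproductive tract.

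Promoter sequences show the element through which many of these genes are known to respond. RefSeq promoter windows of 300 bases (250 before and 50 after the annotated start, build GRCm38.p6) were matched for 30 of the 40 genes. The core of the response element was searched as GAAA, any 2 bases and GAAA, and that of the gamma-activated site as TTCNNNGAA, on both strands, and matches of one motif may overlap those of the other. The response element core was in the windows of 15 of the 30 genes (50%), against 3.68% of the 10023 tested genes with a window and 3.44% of all 32851 windows. The gamma-activated site core was in 8 of 30 (26.7%), against 8.29% of tested genes and 8.30% of all windows. A match describes letters and does not show binding.

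The stretches below are 60 bases long and lie before the annotated start, with each match to the response element core in capitals. They are written 5′ to 3′ on the strand of the gene, so TTTC, any 2 bases and TTTC is a match on the opposite strand. The first 5 are from genes that rose at estrus, and Ifit3 and Rsad2, which carry the same core, are from genes that did not pass the test.
Isg15, chr4:156200856-156200915, minus strand: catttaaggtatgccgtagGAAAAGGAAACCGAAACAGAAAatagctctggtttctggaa
Oas1a, chr5:120907526-120907585, minus strand: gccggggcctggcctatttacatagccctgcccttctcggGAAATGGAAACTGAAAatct
Oas1g, chr5:120887614-120887673, minus strand: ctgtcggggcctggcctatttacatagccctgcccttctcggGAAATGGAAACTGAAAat
Ifit1, chr19:34640769-34640828, plus strand: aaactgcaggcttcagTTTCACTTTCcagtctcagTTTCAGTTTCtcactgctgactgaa
Bst2, chr8:71537565-71537624, minus strand: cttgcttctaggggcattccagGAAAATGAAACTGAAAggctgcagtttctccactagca
Ifit3, chr19:34583365-34583424, plus strand: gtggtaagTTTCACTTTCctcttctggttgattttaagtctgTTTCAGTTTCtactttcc
Rsad2, chr12:26456538-26456597, minus strand: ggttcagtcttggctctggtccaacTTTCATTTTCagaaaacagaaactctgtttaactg
The stretch of Isg15 held 3 overlapping matches. Those of Oas1a, Oas1g, Ifit1, Bst2 and Ifit3 held 2 each, and that of Rsad2 held 1. Of the 15 genes with the response element core, 9 rose at estrus, and of the 15 matched genes without it, 8 rose. The genes without a matched window are outside these counts, and all of them rose. They are Dhx58, Zbp1, Oas1b, Oas2, Mx1, Mx2, Usp18, Parp9, Parp14 and Rtp4.

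The comparison of estrus with diestrus asked which of these genes change over the cycle. At estrus, 27 of the 40 rose and none fell, among them the 7 listed 2-5A synthetase family genes, Mx1, Isg15, Stat2, Irf7 and Irf9. Over all 13920 tested genes, 17.2% rose and 14.0% fell. The increase was at least 2-fold for 20 of the 40 and at least 4-fold for 7, against 6.79% and 1.70% of all tested genes. The median log2 fold change of the 40 was 1.01, from -0.71 for Isg20 to 2.75 for Mx1, and the median over all tested genes was 0.05. These are limma tests on log2(FPKM + 1) with Benjamini-Hochberg adjustment over all tested genes and a threshold of 0.05, and fold changes on this scale understate the change of genes near 0. Each of the 40 had at least 1 FPKM in at least 3 libraries, the condition for being tested. With no such condition, 23 of the 40 rose, against 10.2% of all genes.

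The 3 estrus values lay above all 4 diestrus values for 27 of the 40 genes, the same 27 that passed the test, and below them for none. Over all tested genes 21.9% were separated in this way with estrus higher and 18.7% with estrus lower. For each of the 27 an exact two-sided permutation test over the 35 ways to divide the libraries gave p = 0.0286, the smallest value that it can give. That p-value largely follows from the separation of the groups and is no separate support. When single libraries were left out, 22 to 27 of the 40 rose, and 21 rose whichever library was left out. Without diestrus replicate 1, 24 of the 40 and 20.8% of all tested genes rose. Without estrus replicate 2, 27 of the 40 and 6.20% of all tested genes rose. Without estrus replicate 3, 23 of the 40 and 13.9% of all tested genes rose, and the median log2 fold change of the 40 was 0.69.

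**Figure D1:**
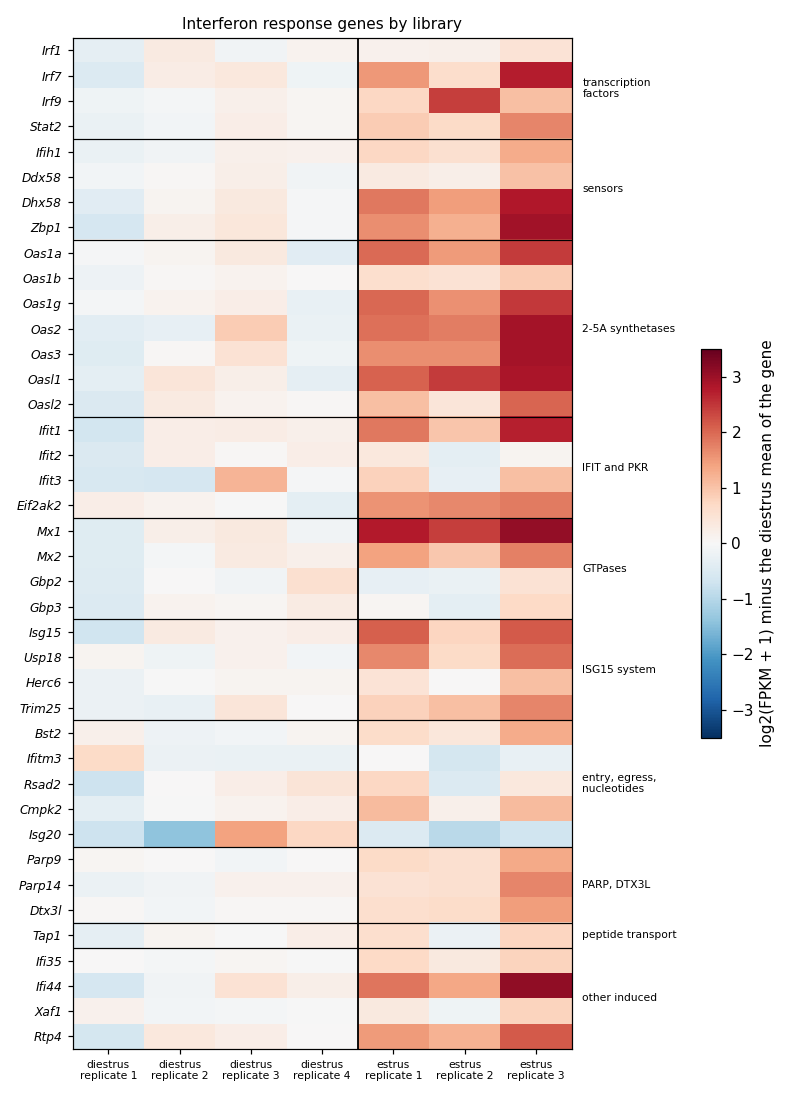
Each row is a gene and each column a library, and the colour gives log2(FPKM + 1) minus the mean of the gene in the 4 diestrus libraries (red higher, blue lower). The 3 estrus columns are red for the 27 genes that rose, with estrus replicate 3 the darkest for most, while Gbp2, Ifit2, Ifitm3 and Isg20 show no such block.

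The libraries of a stage were not alike. Estrus replicate 3 was the highest estrus library for 35 of the 40 genes, against 42.2% of all tested genes, and estrus replicate 2 was the lowest for 31, against 23.4%. The median over the 40 genes was 18.6, 16.2 and 33.1 FPKM in estrus replicates 1 to 3, and 7.28, 9.42, 12.6 and 9.26 FPKM in diestrus replicates 1 to 4. Among the diestrus libraries, replicate 1 was the lowest for 26 genes, against 30.5% of all tested genes, and replicate 3 the highest for 23, against 25.1%. Irf9 was the exception among the 27 genes that rose, being highest in estrus replicate 2.

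Depth and the levels of cell type markers differed between libraries. FPKM carry no read count, and relative depth read from the spacing of the lowest values ran from 0.92 to 1.36 times that of estrus replicate 1. In whole tissue, fewer cells of a type and less RNA per cell cannot be told apart. Marker counts are read against the 17.2% of all tested genes that rose and the 14.0% that fell. Of 14 epithelium markers, 11 rose and none fell, with 10 to 11 that rose when single libraries were left out, and their summed level was 1066.9 to 1524.0 FPKM in diestrus and 3747.2 to 4189.7 in estrus, with none at 0. The part of this shift in the results on interferon response genes was not tested. In estrus replicates 1 to 3 the epithelial sum was 3829.5, 4189.7 and 3747.2 FPKM. Of 12 stroma markers 5 fell and none rose, with 4 to 5 that fell when single libraries were left out. Log2 fold changes were negative for 9 of them and positive for 3. Their summed level was 3356.0 to 6106.7 FPKM in diestrus and 4010.0 to 5285.7 in estrus, with overlapping ranges. Of 10 endothelium markers 9 fell and none rose, but 0 fell without estrus replicate 2, 4 without estrus replicate 1 and 5 without diestrus replicate 3. Of 15 tested macrophage and dendritic cell markers, 7 fell and 2 rose, Cd14 and Itgam, and the sum was 410.2 to 917.6 FPKM in diestrus and 501.2 to 645.1 in estrus. Of these, 0 fell without estrus replicate 2, 2 without diestrus replicate 4, estrus replicate 1 or estrus replicate 3, 3 without diestrus replicate 2 or 3, and 11 without diestrus replicate 1, while Cd14 and Itgam rose whichever library was left out. Of 8 tested lymphocyte and natural killer cell markers, 4 fell and 1 rose (Cd79b), with sums of 23.3 to 85.5 and 18.1 to 24.4 FPKM. The fall was left to 1 gene, Cd3g, without estrus replicate 2, and to 2 without diestrus replicate 4, estrus replicate 1 or estrus replicate 3. Of 5 tested plasmacytoid dendritic cell markers 1 fell (Tcf4), though not without diestrus replicates 3 or 4 or any 1 estrus library, and the defining marker Siglech averaged 1.03 FPKM in diestrus and 0.241 in estrus. None of 3 tested neutrophil markers passed, and the granule genes Camp and Elane were listed at 0 in every library. Of 9 smooth muscle markers 1 rose (Actg2) and 1 fell (Smtn), with 0 to 1 that rose and 0 to 2 that fell when single libraries were left out and none of either without diestrus replicate 2 or 3 or estrus replicate 2 or 3. Of 10 uterus identity genes, of which Hoxa10 and Hoxa11 are also stroma markers, 4 fell (Hoxa10, Hoxa11, Hoxd10 and Foxa2) and none rose. When single libraries were left out, 4 to 5 fell and 0 to 1 rose. Esr1, Pgr, Hoxa10, Hoxa11 and Pax8 were present in both stages, with means from 27.3 to 157.4 FPKM. Foxa2 was the lowest of the 10, with means of 9.61 FPKM in diestrus and 4.09 in estrus.

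Among the transcription factors, 3 of 4 rose. Stat2, a subunit of the complex that binds the response element (GRCm38 chromosome 10, 128270559 to 128292849), was at 9.23, 10.1, 13.1 and 11.6 FPKM in diestrus replicates 1 to 4 and at 21.1, 18 and 37.7 in estrus replicates 1 to 3. Its diestrus mean was 11.0 ± 1.73 (SD, n = 4) and its estrus mean 25.6 ± 10.6 (SD, n = 3) (log2 fold change 1.09, SE 0.25, limma adjusted p = 0.0172). All estrus libraries lay above the highest diestrus library. Irf9, another subunit of the same complex (chromosome 14, 55603571 to 55610030), was at 19.7, 20.8, 25.0 and 23 FPKM in diestrus and 36.8, 121.2 and 46.9 in estrus. The groups did not overlap, and the value of estrus replicate 2 stood apart from the other estrus values. The log2 fold change of Irf9 was 1.39 (SE 0.37 and adjusted p = 0.0265), with adjusted p = 0.0565 and 0.0575 without diestrus replicate 2 or 4. Irf7, which amplifies type I interferon production (chromosome 7, 141262706 to 141266481), was at 7.48, 13.1, 14.1 and 9.48 FPKM in diestrus and 32.5, 16.8 and 77.1 in estrus. Its spread within estrus was wide, and the log2 fold change of 1.62 (SE 0.46 and adjusted p = 0.0347) passed only with all libraries or without estrus replicate 2. Without diestrus replicates 1 to 4 or estrus replicates 1 or 3 its adjusted p was 0.0608, 0.0562, 0.0525, 0.0795, 0.082 and 0.0578. Irf1, a factor strongly induced by interferon gamma, was at 26.6 to 41.5 FPKM in diestrus and 37.2 to 46.9 in estrus and did not pass (log2 0.27, adjusted p = 0.267).

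The nucleic acid sensors recognise viral RNA or DNA in the cytosol, and 3 of 4 rose. Dhx58, the regulatory helicase LGP2 (chromosome 11, 100694884 to 100704271), was at 2.07, 3.36, 4.12 and 2.96 FPKM in diestrus and at 13.7, 10.2 and 27.5 in estrus. Its log2 fold change was 2.04 (SE 0.32 and adjusted p = 0.00481), and every estrus value was above every diestrus value. Zbp1, a sensor of Z-form nucleic acids that can trigger necroptosis, was at 2.73, 5.51, 6.44 and 4.49 FPKM in diestrus and 16.3, 12.3 and 41.8 in estrus (log2 1.93, SE 0.41, adjusted p = 0.0134). Ifih1, the long RNA sensor MDA5, was at 3.41, 3.71, 4.85 and 4.75 FPKM and then 7.52, 6.64 and 11.6, a smaller rise of 0.86 (SE 0.21, adjusted p = 0.0191) on the log2 scale. Ddx58, the RNA sensor RIG-I, was at 13.2, 14.6, 16.7 and 13.0 FPKM in diestrus and 18.2, 16.7 and 30.2 in estrus. Its groups met at the lowest estrus library, and it did not pass (log2 0.52, adjusted p = 0.092). Before their rise, Dhx58, Zbp1 and Ifih1 had lower diestrus means in FPKM than Ddx58.

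The 2-5A synthetases make the oligoadenylates that activate the antiviral nuclease RNase L, and the 7 family genes among the 40 rose. They lie on chromosome 5. Of 5 further Oas1 genes there, named after their values were seen, Oas1c rose by 0.55 (adjusted p = 0.018, and 0.05 and 0.0954 without diestrus replicate 4 or estrus replicate 2), and Oas1d, Oas1e, Oas1f and Oas1h were too low to be tested. Oasl1, a family member without synthetase activity (114923240 to 114937915), was at 1.48, 3.21, 2.60 and 1.53 FPKM in diestrus and at 12, 15.9 and 21.6 in estrus. This was the largest change of the 7 (log2 2.45, SE 0.26, adjusted p = 0.00151). Oas1a (120896256 to 120907521) was at 5.29, 5.93, 7.22 and 3.88 FPKM and then 24.6, 17.2 and 34.0 (log2 1.97, SE 0.26, adjusted p = 0.00265). Oas1g (120876142 to 120887613) was at 1.75, 2.10, 2.35 and 1.38 FPKM and then 10.6, 7.66 and 15.0 (log2 2.03, SE 0.23, adjusted p = 0.00181). The pair shares much of its sequence. Of the 50-base windows of the longest Oas1a transcript in GENCODE M21, 57.6% also occur in transcripts of another gene. For Oas1g the share is 54.7%, so the division of reads between the pair is uncertain. Oas2 and Oas3, the larger synthetases, rose by 2.20 and 2.06 on the log2 scale, from ranges of 3.22 to 9.05 and 0.65 to 2.14 FPKM to ranges of 17.8 to 39.8 and 5.73 to 15.5. Oas1b, annotated as a polymorphic pseudogene in the reference strain and known as the flavivirus resistance gene, rose least of the 7, by 0.67 (adjusted p = 0.0161), from 1.40 to 1.93 FPKM up to 2.80 to 4.03. Oasl2 had the highest level of the family, at 13.4, 24.4, 21.3 and 20 FPKM in diestrus and 41.3, 26.1 and 81.8 in estrus. The lowest estrus value of Oasl2 lay just above the highest diestrus value, and its log2 fold change of 1.16 (SE 0.37 and adjusted p = 0.0466) did not pass without any 1 library other than estrus replicate 2, with adjusted p from 0.0625 to 0.0986.

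The IFIT proteins bind foreign RNA and the kinase PKR, encoded by Eif2ak2, stops translation when it meets double-stranded RNA. Of these 4 genes 2 rose. Eif2ak2 (chromosome 17, 78852564 to 78882573) was at 13.9, 12.7, 11.5 and 9.04 FPKM in diestrus and at 36.6, 39.7 and 43.8 in estrus. Both groups were tight, and the log2 fold change was 1.70 (SE 0.16 and adjusted p = 0.00124). Ifit1 (chromosome 19, 34640871 to 34650009) was at 2.39, 5.24, 5.32 and 5.03 FPKM and then 18.3, 9.53 and 34.2 (log2 1.85, SE 0.41, adjusted p = 0.015). Its neighbours on chromosome 19 did not pass. Ifit2 was at 3.43, 6.37, 5.37 and 6.33 FPKM in diestrus and 7.08, 3.97 and 5.69 in estrus, with overlapping groups (log2 0.05, SE 0.24, adjusted p = 0.896, and -0.09 under sum scaling). Ifit3 was at 3.41, 3.35, 13.8 and 5.4 FPKM and then 10.4, 4.32 and 12.6 (log2 0.52, SE 0.50, adjusted p = 0.438). The highest Ifit3 value came from a diestrus library. Of the 50-base windows of Ifit3, 51.2% also occur in the related gene Ifit3b, so the value of Ifit3 is uncertain.

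Among the GTPases, the 2 Mx genes rose and the 2 guanylate-binding genes did not pass. Mx1, which blocks influenza-like viruses in the nucleus (chromosome 16, 97447035 to 97462907), was at 0.519, 1.36, 1.57 and 0.889 FPKM in diestrus and at 12.9, 9.83 and 16.1 in estrus. This was the largest rise of the 40, from a diestrus mean of 1.08 ± 0.474 FPKM (SD, n = 4) up to 13.0 ± 3.13 in estrus (SD, n = 3) (log2 2.75, SE 0.23, adjusted p = 0.00103). Mx2 was at 1.12, 1.74, 2.55 and 2.24 FPKM and then 6.53, 4.46 and 8.80 (log2 1.37, SE 0.25, adjusted p = 0.00789). Many inbred mouse strains carry disrupted Mx alleles, and those of these outbred mice are not in the labels. Gbp2 was at 22.7, 31.6, 28.7 and 47.0 FPKM in diestrus and 25.3, 26.7 and 45.3 in estrus, and its mean was 32.5 ± 10.3 and 32.4 ± 11.2 FPKM. Gbp3 was at 10.8, 17.0, 16.2 and 18.9 FPKM and then 16.1, 11.9 and 25.4, and did not pass (log2 0.13, SE 0.27, adjusted p = 0.73), with -0.02 under sum scaling. Both guanylate-binding genes are known as strong targets of interferon gamma. Of 5 further guanylate-binding genes measured on chromosome 5, 4 rose. The part of any single interferon in these results was not tested.

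Isg15 is a ubiquitin-like protein that is attached to other proteins, Usp18 removes it and restrains receptor signalling, and Herc6 and Trim25 are ligases. Of these 4 genes 3 rose. Isg15 (chromosome 4, 156199424 to 156200818) was at 7.07, 15.2, 13.6 and 14.2 FPKM in diestrus and at 54.7, 20.9 and 56.3 in estrus. Estrus replicate 2 was well below the other estrus libraries but above every diestrus library, and the log2 fold change was 1.66 (SE 0.39 and adjusted p = 0.0184). Its adjusted p was 0.0647 and 0.0548 without estrus replicate 1 or 3. Usp18 was at 4.51, 3.71, 4.81 and 3.84 FPKM and then 15.6, 7.21 and 19.1 (log2 1.43, SE 0.29, adjusted p = 0.0114). Trim25, the ligase that activates RIG-I, was at 25.1, 24.0, 39.2 and 29.3 FPKM and then 51.1, 61.5 and 96.9 (log2 1.19, SE 0.25, adjusted p = 0.0125). Herc6, the main Isg15 ligase of the mouse, was at 4.13 to 5.31 FPKM in diestrus and 4.99 to 11.3 in estrus and did not pass (log2 0.52, adjusted p = 0.128). Of its 50-base windows 23.8% occur in another annotated gene.

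Of the 5 effectors of viral entry, egress and nucleotide supply, only Bst2 rose. Bst2, the tetherin that holds budding virions at the membrane (chromosome 8, 71534255 to 71537456), was at 125.8, 98.3, 105.8 and 120.5 FPKM in diestrus and 176.7, 146.9 and 275.9 in estrus. The groups did not overlap, and the log2 fold change was 0.78 (SE 0.22 and adjusted p = 0.0343). Without diestrus replicates 2, 3 or 4 or estrus replicates 1 or 3 its adjusted p was 0.0738, 0.074, 0.0662, 0.0704 and 0.0612. Ifitm3, which blocks virus fusion in endosomes, had the highest level of all 40 genes, at 979.1, 533.1, 519.8 and 521.8 FPKM in diestrus and 622.0, 401.9 and 508.5 in estrus. Its highest value was in diestrus replicate 1 and its groups overlapped (log2 -0.29, SE 0.29, adjusted p = 0.464). Cmpk2 and Rsad2 are neighbours on chromosome 12 whose products act on nucleotides, Rsad2 making a chain terminator of viral RNA synthesis. Cmpk2 was at 2.85, 3.83, 4.34 and 4.79 FPKM and then 9.46, 4.55 and 9.49 (log2 0.79, SE 0.26, adjusted p = 0.0532). Estrus replicate 2 alone lay within the diestrus range of Cmpk2, and without that library its adjusted p was 0.0259. Rsad2 was at 1.83 to 5.36 FPKM in diestrus and 2.36 to 6.61 in estrus (log2 0.21, adjusted p = 0.672). Isg20, a 3′ to 5′ exonuclease, was at 14.6, 8.78, 67.5 and 41.4 FPKM in diestrus and 17.4, 12.5 and 14.8 in estrus. Its diestrus values spread widely around those of estrus (log2 -0.71, SE 0.63, adjusted p = 0.404).

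Parp9, Parp14 and Dtx3l lie together on chromosome 16 between 35832874 and 35972605, and all 3 rose by less than 2-fold. Their products act in ADP-ribosylation, with Dtx3l the ubiquitin ligase partner of Parp9. Parp9 was at 18.7, 18, 16.4 and 17.8 FPKM in diestrus and 28.6, 26.7 and 45.5 in estrus (log2 0.85, SE 0.19, adjusted p = 0.0148). Dtx3l was at 13.4, 12.1, 13.5 and 13.4 FPKM and then 20, 20.9 and 38.2 (log2 0.90, SE 0.22, adjusted p = 0.0212). Both were nearly constant over the diestrus libraries. Parp14 was at 12.1, 12.9, 15.7 and 15.7 FPKM and then 20.2, 21.3 and 47.7 (log2 0.93, SE 0.29, adjusted p = 0.0454), and its adjusted p ran from 0.0725 to 0.0904 without any 1 diestrus library or without estrus replicate 2.

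Tap1, the peptide transporter that feeds class I molecules, was at 9.78, 13.2, 12.1 and 14.8 FPKM in diestrus and 18.9, 10.5 and 21.5 in estrus. Its groups overlapped through estrus replicate 2, and it did not pass (log2 0.37, SE 0.25, adjusted p = 0.277). Of the remaining 4 genes, 3 rose. Ifi44 (chromosome 3, 151730922 to 151749960) was at 2.13, 3.34, 5.75 and 4.42 FPKM and then 16.2, 11.0 and 39.8 (log2 2.10, SE 0.43, adjusted p = 0.0114). Rtp4, a receptor transporter protein, was at 7.79, 16.3, 14.6 and 12.6 FPKM in diestrus and 36.7, 30.2 and 58.5 in estrus (log2 1.62, SE 0.29, adjusted p = 0.00733). Ifi35, the partner of Nmi, was at 17.1, 16, 17.7 and 16.9 FPKM and then 28.1, 21.8 and 29.6, a small but separated rise (log2 0.61, SE 0.13, adjusted p = 0.0136). Xaf1, a pro-apoptotic inhibitor of XIAP, was at 17.3 to 20.7 FPKM in diestrus and 16.6 to 32.3 in estrus and did not pass (log2 0.32, adjusted p = 0.263).

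**Figure D2:**
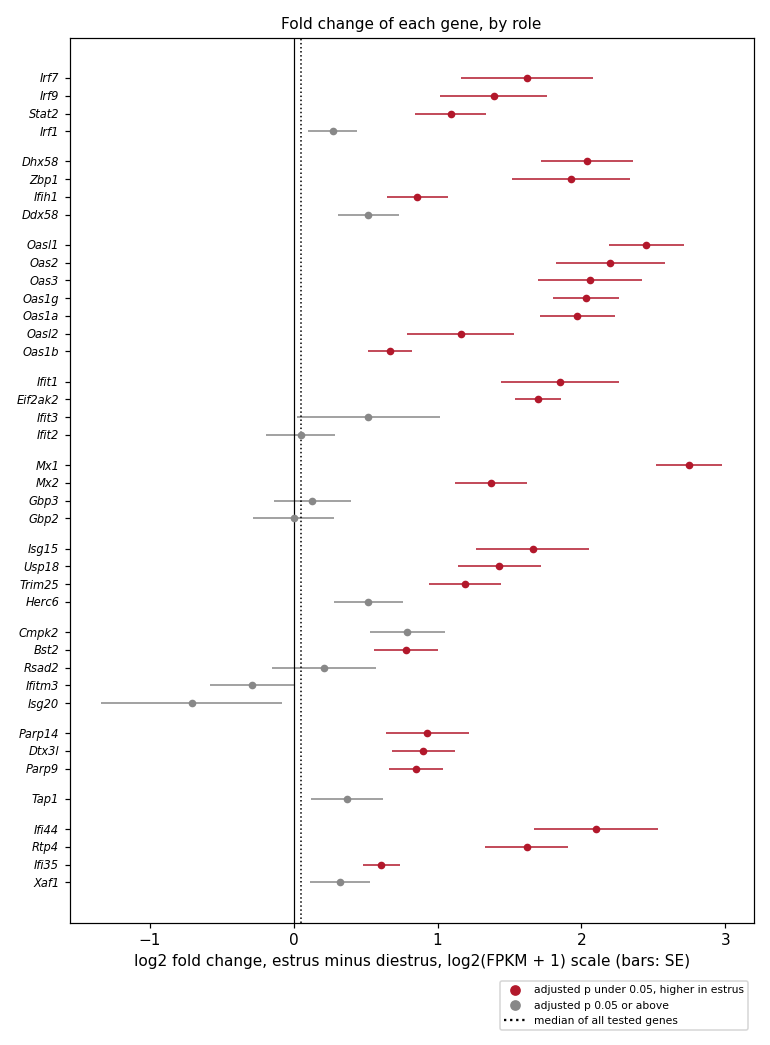
Points are log2 fold changes, estrus less diestrus, as differences of log2(FPKM + 1), with standard errors, grouped by role in the order of the text (n = 4 and 3 libraries), and red marks an adjusted p under 0.05. Mx1, Oasl1 and Oas2 lie farthest right, Gbp2 and Ifit2 lie at the dotted median of all genes, and Ifitm3 and Isg20 lie left of 0.

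Most ligands were listed at 0. Of 19 interferon ligand genes in the table, 14 were listed at 0 in all 7 libraries, including each of the 11 numbered Ifna genes measured, Ifnl2 and Ifnl3. Sequence shared with other genes was not measured for these genes. Ifnb1, Ifnk, Ifnz and Ifng did not exceed 0.286 FPKM in any library. Ifne (chromosome 4, 88879538 to 88880201) was the 1 ligand that could be tested, at 0.998, 1.93, 2.36 and 1.01 FPKM in diestrus and at 4.77, 9.51 and 15.9 in estrus. Its mean of 1.58 ± 0.683 FPKM became 10.1 ± 5.61 (log2 2.01, SE 0.37, adjusted p = 0.00793), with no overlap between groups and an adjusted p of at most 0.0411 when single libraries were left out. Estrus replicate 3 was the highest library for Ifne, as for most of the 40 genes, but estrus replicate 2 was above estrus replicate 1.

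The chains of the type I receptor did not pass. Ifnar1 was at 27, 32.0, 41.2 and 33.4 FPKM in diestrus and 24.1, 25.8 and 28.2 in estrus (log2 -0.33, SE 0.15, adjusted p = 0.131). Ifnar2 was at 25.2, 39.3, 37.6 and 55.7 FPKM and then 21.8, 23.4 and 30.6 (log2 -0.58, SE 0.25, adjusted p = 0.114). Both fell without diestrus replicate 1, with adjusted p = 0.0454 and 0.0238, and under sum scaling, with 0.0306 and 0.0399. Ifngr2, the signalling chain of the gamma receptor, rose from 30.3, 32.9, 31.4 and 31.5 FPKM to 54.0, 71.7 and 104.0 (log2 1.2, SE 0.20, adjusted p = 0.00595), while Ifngr1 stood at 29.8 to 41.3 FPKM and 38.6 to 47.0 (log2 0.26, adjusted p = 0.197). Il10rb, shared by the lambda interferon and interleukin 10 receptors, rose by 0.56 (SE 0.13, adjusted p = 0.0186), with adjusted p = 0.0748 and 0.0541 without estrus replicate 2 or 3. Ifnlr1, the specific chain of the lambda receptor, was at 2.83 to 4.24 FPKM and 3.59 to 3.94 (log2 0.12, adjusted p = 0.553).

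**Figure D3:**
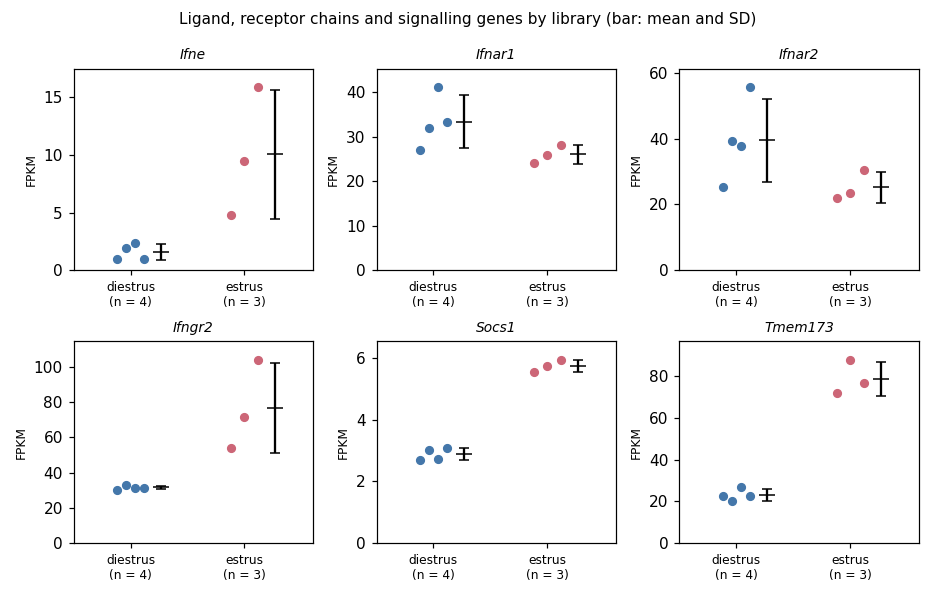
Each point is the FPKM of a library at diestrus (blue) or estrus (red), with the mean and SD beside it. Ifne, Ifngr2, Socs1 and Tmem173 have estrus points above all diestrus points, whereas the points of Ifnar1 and Ifnar2 overlap.

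Of 14 tested genes of interferon signalling and its inhibitors, 1 rose and 2 fell, against 17.2% and 14.0% of all tested genes. Socs1, a feedback inhibitor of the Jak kinases, rose from 2.87 ± 0.2 to 5.75 ± 0.196 FPKM (log2 0.80, SE 0.12, adjusted p = 0.00367). Irf8 and Irf5, factors of myeloid cells, fell by 0.52 and fell by 0.66, with adjusted p = 0.0189 and 0.036. Of the macrophage and dendritic cell markers, 7 fell and 2 rose, with 0 that fell without estrus replicate 2, and their part in this was not tested. With 1 library left out their adjusted p reached 0.092 and 0.145, both without estrus replicate 2, and without diestrus replicate 4 or estrus replicate 1 they were 0.0555 and 0.0521 for Irf8 and 0.0863 and 0.0756 for Irf5. Irf5 was also at 0.061 and 0.058 without diestrus replicate 2 or estrus replicate 3. Jak1, Jak2 and Tyk2 did not pass, with log2 fold changes of -0.26, 0.14 and 0.19.

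Of 14 genes of innate sensing upstream of interferon, 4 rose and none fell, against 17.2% and 14.0% of all tested genes. Tmem173, which encodes STING, the adaptor of cytosolic DNA sensing, was at 22.7, 20.2, 26.8 and 22.7 FPKM in diestrus and 72.1, 88.0 and 76.6 in estrus (log2 1.73, SE 0.13, adjusted p = 0.000793). Adar, the double-stranded RNA editor, rose by 1.01 (SE 0.12, adjusted p = 0.00202), and Tlr3, the endosomal double-stranded RNA receptor, rose by 1.07 (SE 0.13, adjusted p = 0.00223). The fourth gene was the kinase Tbk1, which rose by 0.42 (adjusted p = 0.0216) and was at 0.0638, 0.0953 and 0.0593 without diestrus replicate 4 or estrus replicates 2 or 3. Mavs, the adaptor of RIG-I and MDA5, had a log2 fold change of -0.04.

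A further list of interferon-induced genes outside the 40 was examined too. Of its 54 tested genes, 23 rose and 2 fell, against 17.2% and 14.0% of all tested genes, with a median log2 fold change of 0.68. Leaving out single libraries gave 13 to 20 that rose, with 14 without estrus replicate 1 and 13 without estrus replicate 3, and 15 rose with no expression filter. Samd9l, an antiviral translation inhibitor, rose from 15.3 ± 1.35 to 66.3 ± 16.4 FPKM (log2 2.02, SE 0.17, adjusted p = 0.00101). The immunity GTPases Gbp6 and Irgm1 rose by 1.55 and 1.36, with adjusted p = 0.00237 and 0.00279, but 59.7% of the 50-base windows of Gbp6 occur in transcripts of other genes. The 2 that fell were Ifitm1 and Ifitm2, relatives of Ifitm3 on chromosome 7, named after their values were seen. Ifitm1 went from 265.5 ± 52.7 to 121.2 ± 46.5 FPKM (log2 -1.17, adjusted p = 0.02) and Ifitm2 from 511.5 ± 70.1 to 305.5 ± 28.5 (log2 -0.74, adjusted p = 0.0174). Without estrus replicate 2 their adjusted p was 0.0772 and 0.0859, and Ifitm2 was at 0.0523 without estrus replicate 3. Of the 50-base windows of Ifitm2, 48.5% occur in transcripts of other genes.

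Of 15 class I antigen presentation genes, 4 rose and none fell, against 17.2% and 14.0% of all tested genes, with a median log2 fold change of 0.15. The peptidase Erap1 and the proteasome activator subunit Psme2 rose by 0.69 and 1.18, with adjusted p = 0.00977 and 0.0117. Psmb10 and Psme1 rose by 0.53 and 0.39, with adjusted p = 0.0283 and 0.0423, but Psme1 did not pass when any 1 library was left out (0.0512 to 0.123) and Psmb10 passed only without diestrus replicate 1 or 2. The light chain B2m and the heavy chains H2-K1 and H2-D1 had log2 fold changes of -0.41, 0.05 and -0.24 and did not pass. B2m was at 602.1 to 1212.5 FPKM in diestrus and 406.8 to 891.0 in estrus.

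**Figure D4:**
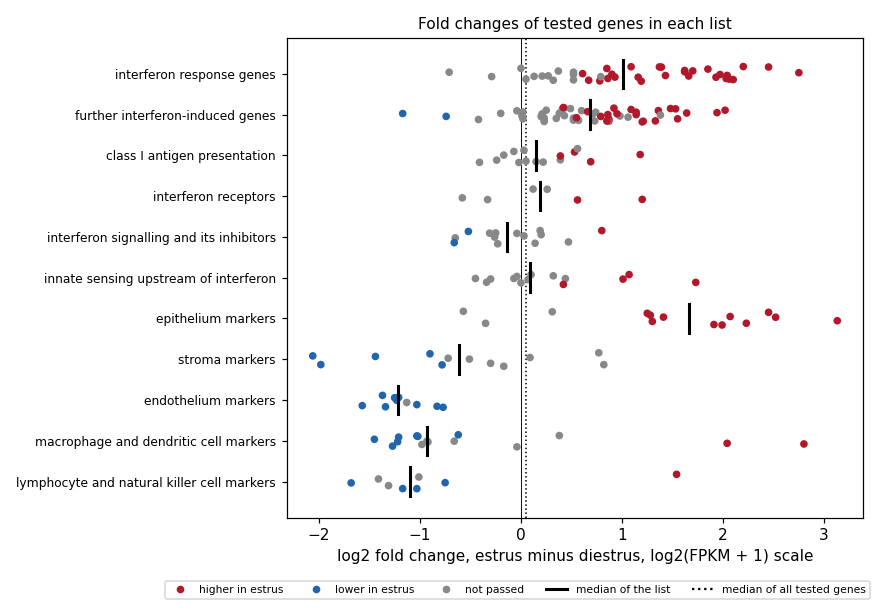
Each point is the log2 fold change of a tested gene, estrus less diestrus, as a difference of log2(FPKM + 1), red where it rose, blue where it fell and grey where it did not pass, with the median of the list as a black bar. The 40 interferon response genes have a median of 1.01 and the further interferon-induced genes 0.68, while class I presentation, receptors, signalling and sensing lie near the dotted median of all genes, and cell markers lie on both sides.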

How the data were processed

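Libraries had been made from column-purified, DNase-treated RNA with an Illumina TruSeq kit, per the labels' protocols. The deposited table gives FPKM per gene, and the submitters' processing notes name TopHat2 2.0.4 and mm10 without a role. The program and annotation behind the FPKM: not given in the sources used here. All 7 columns were matched by sample description, with 0 unused.

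A gene was tested where 3 or more libraries reached 1 FPKM. Log2(FPKM + 1) values were compared by limma 3.58.1 (R 4.3.3), estrus (n = 3) against diestrus (n = 4), with an intensity trend and two-sided Benjamini-Hochberg adjusted p-values (threshold 0.05). The genes and lists were chosen with earlier results of these data known, so no list was tested and counts are set beside all tested genes. Values per library are given for the 3 smallest p-values and the highest level of each role, and for genes averaging at least 5 FPKM with p above 0.5. Of each further list the 3 smallest p-values are named, with all ligands and receptors; names beyond that were chosen after values were seen. The fit was tested on simulated data for 13749 genes, of which 200 were given a known change. It recovered 54% of the 2-fold and 91% of the 4-fold changes, with 6 false calls among 151. The simulated noise was independent between genes, and the changed genes averaged above 5 FPKM on the log scale. These rates therefore need not hold for lower genes, or where a library shifts many genes together as in the data. Coordinates are from GENCODE M21 (GRCm38, the mm10 assembly). Promoter orientation was checked against transcripts. Alternatives were pseudocounts of 0.1 and 5, no filter, a mean of at least 5 FPKM, 3 scalings, library weights, robust moderation, no trend, the replicate number as a block, and each library left out in turn. A gene of the signalling list is not reported here, and the counts of that list are without it.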

Additional observations from a re-analysis of the deposited data

Results flagged for a closer look

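Among the 4 diestrus libraries, 5 of 68 genes and marker sums examined had a library far from the other 3, on the log2(FPKM + 1) scale and by Dixon's criterion, which chance meets in about 1 of 20 groups. In diestrus replicate 1, Ifit1 was at 2.39 FPKM against 5.03 to 5.32 in the others and Isg15 at 7.07 against 13.6 to 15.2. In the same library Ifitm3 was high, at 979.1 FPKM against 519.8 to 533.1. Oas2 was at 9.05 FPKM in diestrus replicate 3 against 3.22 to 3.69 in the others. Dtx3l was at 12.1 FPKM in diestrus replicate 2 against 13.4 to 13.5, a small difference in a gene whose other values were nearly equal.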

How the results depend on the processing

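Of the 40 interferon response genes, between 20 and 27 rose in each setting tried, and 19 rose in all settings in which they were tested. Pseudocounts, trend, robust moderation and scalings left the count between 24 and 27. Summed FPKM ran from 471379.3 to 583079.1 in the diestrus libraries and from 677343.7 to 731457.2 in the estrus libraries. Sum scaling, to totals without GenBank, microRNA and snoRNA rows, moved the median log2 change of all genes from 0.05 to -0.10. That of the 40 moved from 1.01 to 0.89. Library weights, whose estimation stopped before convergence, gave 4944 higher and 4423 lower genes in all, a median of 0.58 for the 40, and 2 of them lower, and lower counts of 5 for class I presentation, 6 for further interferon-induced genes, 5 for sensing, 2 for receptors and 6 for signalling, where 2 were higher. With these weights log2 changes turned to -0.44 for Gbp3, -0.01 for Herc6, -0.41 for Ifit2, -0.47 for Ifit3, -0.63 for Rsad2, -0.27 for Tap1 and -0.11 for Xaf1. Sum scaling gave 1368 higher and 2822 lower genes in all, -0.02 for Gbp3, -0.09 for Ifit2, -0.01 for Ifnlr1, 1 higher class I gene, and 2 receptors and 5 signalling genes lower. Quantile normalization gave 1684 higher and 1914 lower genes, and 1 receptor each way. With a mean of at least 5 FPKM 1181 genes were lower in all, and 0 signalling genes were higher and 1 lower. With no filter 15 further interferon-induced genes were higher and 1 signalling gene lower. The replicate block used replicates 1 to 3 of both stages. It gave 20 of the 40 higher, 1374 higher and 1029 lower genes in all, 1 higher class I gene, 15 higher and 1 lower further interferon-induced genes, 0 lower signalling genes and 0.19 for Gbp2. The labels do not say what a number shares. Deviations of same-numbered libraries correlated at 0.163, -0.001 and 0.228, and not every library correlated best with its own number. These few values cannot decide whether same-numbered libraries are pairs.

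Leaving out single libraries gave 854 to 2866 higher and 579 to 2445 lower genes in all. It gave 2 to 3 higher class I genes, 13 to 20 higher and 0 to 2 lower further interferon-induced genes, 0 to 1 lower sensing genes, 1 to 2 higher and 0 to 2 lower receptors, and 1 higher and 0 to 3 lower signalling genes. Log2 changes ran from -0.26 to 0.19 for Gbp2, -0.14 to 0.37 for Gbp3, -0.12 to 0.24 for Ifit2 and -0.04 to 0.54 for Rsad2. The causes were not tested. Read counts are not known, so the precision of genes near 1 FPKM, such as Mx1 and Oas3 in diestrus, cannot be given.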

Other observations

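The guanylate-binding protein genes lie in clusters on chromosomes 3 and 5 that gave different values, a pattern seen in the data and not tested. Of the guanylate-binding protein genes, which act against intracellular pathogens, the 4 measured on chromosome 3 (Gbp2, Gbp3, Gbp5 and Gbp7) did not pass, with log2 fold changes from -0.42 to 0.13. Of the 5 measured on chromosome 5, 4 rose (Gbp4, Gbp6, Gbp9 and Gbp10) and Gbp8 did not pass, with log2 fold changes from 0.52 to 1.55. Gbp4 went from 3.67 ± 1.03 FPKM (SD, n = 4) in diestrus to 12.4 ± 4.59 (SD, n = 3) in estrus and Gbp9 from 11.1 ± 1.82 to 21.8 ± 2.84, against 9.39 ± 2.33 and 9.09 ± 2.49 for Gbp7. Of the 50-base windows of Gbp10 82.5% occur in other transcripts, so its value is uncertain, whereas for Gbp9 the share is 8.31% and for Gbp2 2.07%. On chromosome 19 Ifit1 rose and Ifit2 and Ifit3 did not pass, and on chromosome 7 Ifitm1 and Ifitm2 fell while Ifitm3 did not pass.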
